A study of Mus musculus with 13 samples.

Results

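C-type lectins are cell surface receptors that hold a calcium-dependent sugar-binding domain or a fold derived from it, and macrophages use them to take up glycoproteins and to sense microbes and dead cells. A set of 10 genes of this family, taken by name, was followed in the count table: the mannose receptor Mrc1, the galactose-type lectins Mgl2 and Clec10a, the Clec4 genes Clec4a1, Clec4a2, Clec4a3, Clec4n and Clec4d, and Clec7a (Dectin-1) and Clec12a. The names were chosen with earlier results of these data known. All 10 names were found once among 48587 gene symbols, and all 10 passed the filter on low counts, which 13246 genes passed. In macrophages of borders and peripheral tissues Mrc1 is a common marker, and Clec7a is known as a gene that microglia switch on in disease. Some of these receptors activate the cell through the kinase Syk, either by their own tail (Clec7a) or by the adaptor chain encoded by Fcer1g (Clec4n, Clec4d). Others carry an inhibitory tail (Clec4a2, Clec12a), and Mrc1, Mgl2 and Clec10a are best known for uptake.

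RNA was sequenced from sciatic nerve macrophages (4 libraries), optic nerve macrophages (4) and brain microglia (5), all from C57BL/6J mice. The labels name no genotype beyond the strain and no treatment, age, sex or sorting scheme, and none names an allele or an agent. The series asks how macrophages of the peripheral nervous system differ from those of the central nervous system. The sciatic nerve is peripheral, and the optic nerve and brain are central. The labels do not say that replicates came from separate animals, so the p-values measure the spread between these libraries, which may be technical.

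Sequencing depth was 15.7 to 18.2 M counts in the sciatic nerve libraries, 16.5 to 20.4 M in the optic nerve libraries and 10.9 to 23.5 M in the brain libraries. The brain columns carry a prefix that no label explains, and P2ry12, a receptor gene of microglia, measured 4841 to 10466 CPM there. It ran from 2325 to 2540 CPM in the optic nerve and from 128 to 158 CPM in the sciatic nerve libraries. Csf1r, the growth factor receptor of macrophages, was at or above 4150 CPM in each of the 13 libraries. Of 8 microglia genes, 8 were lower in sciatic nerve and 6 in optic nerve than in brain, against 24.3% and 17.4% of all genes tested. Of 9 macrophage genes 1 was higher and 6 were lower in sciatic nerve than in brain, against 24.1% and 24.3%. CPM are counts per 1000000 of the library size after TMM scaling, and means are given ± SD over the 4 or 5 libraries of a tissue. Brain libraries 1 and 2 stood apart from the other brain libraries, with mean correlations of 0.892 and 0.923 with the rest against 0.936 to 0.937. Leaving both out changed no call on the 10 lectin genes.

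Of the 10 genes, 5 lie in the Clec4 cluster of chromosome 6, Clec12a and Clec7a lie further along the same chromosome, Mgl2 and Clec10a are neighbours on chromosome 11, and Mrc1 is on chromosome 2. In GRCm38 with the GENCODE annotation, Mrc1 spans chr2:14229392-14332057 (plus strand, 29 merged exons) and Mgl2 chr11:70130329-70137550 (plus strand). Clec4a3 spans chr6:122952515-122969875 (plus strand) and Clec7a chr6:129461591-129472779 (minus strand). No exon of the 10 genes overlapped an exon of another annotated gene. The promoters of 5 genes are shown because their genes differ in where they are high: per length, Mgl2 has the highest level of the 10 in sciatic nerve, Clec4a3 in brain and Clec7a in optic nerve. Mrc1 is shown as the mannose receptor, with Clec4a1 as a close neighbour of Clec4a3 whose levels differ. Each is the 220 bases from -250 to -31 relative to the RefSeq start of the gene, 5′ to 3′ on the strand of the gene, from the RefSeq promoter table of GRCm38.p6, and holds no annotated exon. Capitals mark GAGGAA on either strand (TTCCTC when read on the other strand), the core of many sites of the myeloid factor PU.1.
Mrc1 (chr2:14229164-14229383, plus strand): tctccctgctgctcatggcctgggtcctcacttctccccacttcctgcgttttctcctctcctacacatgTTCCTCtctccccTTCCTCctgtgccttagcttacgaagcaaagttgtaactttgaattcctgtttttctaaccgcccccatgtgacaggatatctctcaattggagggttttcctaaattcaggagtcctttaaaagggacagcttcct
Mgl2 (chr11:70130107-70130326, plus strand): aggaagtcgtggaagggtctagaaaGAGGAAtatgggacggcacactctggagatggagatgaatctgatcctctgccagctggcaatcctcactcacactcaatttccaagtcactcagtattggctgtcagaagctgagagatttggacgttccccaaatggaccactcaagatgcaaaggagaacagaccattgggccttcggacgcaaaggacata
Clec4a1 (chr6:122921598-122921817, plus strand): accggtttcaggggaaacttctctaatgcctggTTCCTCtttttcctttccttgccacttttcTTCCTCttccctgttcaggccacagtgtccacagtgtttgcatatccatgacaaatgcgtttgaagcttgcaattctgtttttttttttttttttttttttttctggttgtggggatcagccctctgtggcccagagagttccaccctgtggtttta
Clec4a3 (chr6:122952265-122952484, plus strand): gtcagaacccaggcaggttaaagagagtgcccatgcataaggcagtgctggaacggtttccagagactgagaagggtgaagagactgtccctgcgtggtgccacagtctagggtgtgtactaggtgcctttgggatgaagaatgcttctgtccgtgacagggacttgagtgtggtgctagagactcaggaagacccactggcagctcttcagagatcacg
Clec7a (chr6:129472810-129473029, minus strand): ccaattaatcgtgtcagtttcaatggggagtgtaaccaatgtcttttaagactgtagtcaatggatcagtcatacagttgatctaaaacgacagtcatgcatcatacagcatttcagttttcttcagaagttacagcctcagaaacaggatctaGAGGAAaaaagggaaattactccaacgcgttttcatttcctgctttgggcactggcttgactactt

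The RefSeq table matched 8 of the 10 genes with 10 start windows, and Clec10a and Clec4n had no entry. GAGGAA was present in 8 of the 10 windows, which belong to 7 of the 8 genes, and in 20.4% of all 32851 windows of the same length. Among the windows shown it occurred in Mrc1, Mgl2, Clec4a1 and Clec7a and was absent from the Clec4a3 window shown, while a second Clec4a3 start window held it. TGANTCA, the AP-1 element, was found in 1 window of the 10 (6.12% of all windows), and TATAAA in 1 (9.95%). The TGANTCA match lies in the Clec12a window, which also holds GAGGAA and in which all 220 bases are annotated exon. The TATAAA match lies in the Clec4a2 window, with 38 exon bases, and the second Clec4a3 window has 26. Both Clec7a windows overlap and hold the same GAGGAA, so the windows are not independent. Both strands were searched and no motif overlapped another in the sequences shown. The motifs were chosen after the promoters had been seen, and a match is a description of the letters.

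In sciatic nerve macrophages all 10 lectin genes were higher than in brain microglia, with the lowest sciatic nerve library above the highest brain library each time. In edgeR's quasi-likelihood test 10 of 10 were called higher at a Benjamini-Hochberg adjusted p under 0.05, against 24.1% of the 13246 genes tested called higher, and none lower, against 24.3%. Libraries were fully separated upward for 10 of 10, against 22.1% of all genes, and downward for none, against 19.2%. These counts describe the set and are no test of the family, because the genes and the lists below were chosen with earlier results known. Clec4n, Clec4d, Mgl2, Clec10a and Clec12a, with few or no brain counts, could pass the filter only through the nerves. A higher level in a nerve than in brain was thus fixed in advance for them, and for list genes with 0 counts in brain. Their median log2 fold change was 9.47, against -0.09 over all genes tested, and 8.47 with Clec4n and Clec4d, which are at 0 in brain, set to their lower bounds. In optic nerve against brain 7 were higher, against 19.6% of all genes, 2 were lower, against 17.4%, and Clec4a1 was not called (median log2 fold change 4.25, also with those bounds, against -0.08 over all genes). There the libraries were separated upward for 7 genes, against 17.4% of all, and downward for 2, against 14.4%. In sciatic against optic nerve 9 were higher, against 10.9% of all genes, none was lower, against 10.9%, and Clec7a was not called (median 4.43, against 0.00 over all genes). Separation was upward for 9, against 15.5% of all genes, and downward for none, against 14.4%. The 3 comparisons share their libraries, so their counts are not independent of each other. In bulk RNA, fewer cells of a type and less RNA per cell cannot be told apart.

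**Figure D1:**
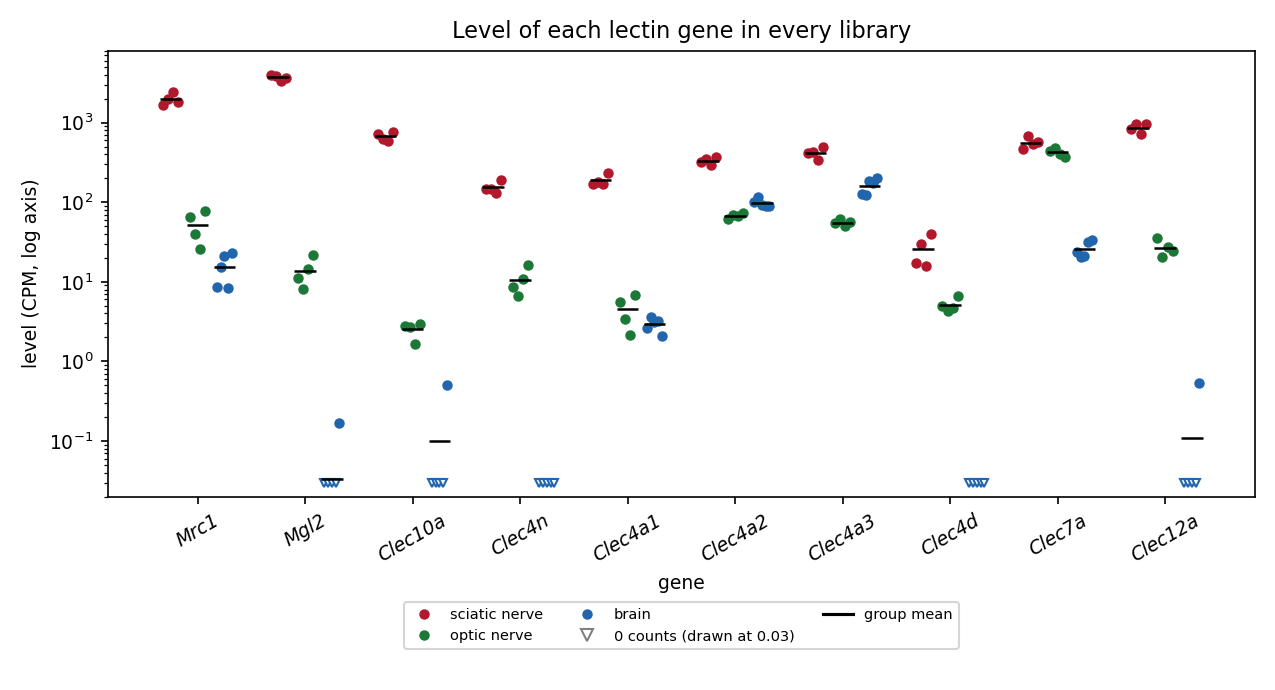
Level of each lectin gene in CPM (log axis) in every library: points are libraries, black bars the group means, and open triangles libraries with 0 counts. Sciatic nerve libraries lie above brain libraries for each gene, optic nerve lies below brain for Clec4a2 and Clec4a3, and Clec7a is high in both nerves.

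Mrc1, the mannose receptor, takes up glycoproteins that end in mannose. It measured 1686, 2005, 2442 and 1813 CPM in sciatic nerve replicates 1 to 4, and 65.0, 39.3, 25.9 and 78.4 CPM in optic nerve replicates 1 to 4. Brain libraries 1 to 5 had 8.61, 15.3, 21.2, 8.40 and 23.2 CPM. The sciatic nerve libraries are far above all others, and the optic nerve libraries are all above the brain libraries, the lowest of the former by little. Mrc1 rose by a log2 fold change of 7.01 (SE 0.42) in sciatic nerve against brain, which is 130-fold between the means, and by 5.25 (SE 0.42) against optic nerve (edgeR adjusted p = 3.07e-09 and 3.01e-07). In optic nerve against brain it rose by 1.76 (SE 0.34, edgeR adjusted p = 0.00113), from 15.3 ± 6.87 to 52.1 ± 23.9 CPM.

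Mgl2 and Clec10a encode galactose-type lectins of macrophages and dendritic cells that bind galactose and N-acetylgalactosamine, and both were abundant in sciatic nerve, low in optic nerve and near 0 in brain. Mgl2 measured 3975, 3878, 3344 and 3589 CPM in sciatic nerve replicates 1 to 4, and 11.1, 8.01, 14.3 and 21.6 CPM in the optic nerve replicates. In brain it had 0 counts in libraries 1 to 4 and 4 counts (0.167 CPM) in library 5. The 3 tissues do not overlap for this gene. Clec10a ran from 584 to 773 CPM in sciatic nerve and from 1.67 to 2.96 CPM in optic nerve, and in brain it had 0 counts in libraries 1 to 4 and 12 counts (0.501 CPM) in library 5.

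The difference between the nerves was of nearly the same size for both genes. Mgl2 was 269-fold and Clec10a 267-fold higher in sciatic than in optic nerve (log2 fold changes 8.07, SE 0.42, and 8.06, SE 0.54, edgeR adjusted p = 4.07e-09 and 4.04e-08). Against brain, Mgl2 rose in sciatic nerve by 16.43 (SE 0.56) and Clec10a by 12.55 (SE 0.63) in log2 (edgeR adjusted p = 1.05e-11 and 4.43e-10). In optic nerve against brain both rose as well, by 8.35 (SE 0.53) and 4.49 (SE 0.63), with edgeR adjusted p = 1.49e-08 and 6.56e-05. The brain counts of both genes all come from library 5. Over all brain libraries, library 5 included, the means of Mgl2 differed 110668-fold in sciatic nerve and 411-fold in optic nerve. Those of Clec10a differed 6717-fold and 25.2-fold. Against the other 4 brain libraries, all at 0, Mgl2 was at least 109899-fold and Clec10a at least 20012-fold higher in sciatic nerve. In optic nerve the bounds were 409-fold and 75.0-fold (floor of 3 counts over the group). These bounds leave out the library with counts, which was known when it was left out. Without brain libraries 1 and 2 the fitted changes were 15.85 and 11.92 in sciatic nerve and 7.79 and 3.87 in optic nerve. Of the 50-base stretches of their annotated transcripts, 13.1% for Mgl2 and 9.02% for Clec10a occur in other genes, mostly in each other, so reads from these parts may have been split or dropped by the counting.

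Clec12a, an inhibitory receptor that senses uric acid crystals of dead cells, followed a similar order. It measured 829, 966, 710 and 959 CPM in sciatic nerve replicates 1 to 4, and 35.3, 20.5, 27.5 and 24.6 CPM in the optic nerve replicates. Brain libraries 1 to 4 had 0 counts and library 5 had 13 (0.543 CPM). No optic nerve library reached the lowest sciatic nerve library or came near the brain. Clec12a rose by 12.80 (SE 0.65) in sciatic nerve and by 7.80 (SE 0.60) in optic nerve against brain, and by 5.01 (SE 0.48) in sciatic against optic nerve (edgeR adjusted p = 5.24e-10, 1.20e-07 and 1.85e-06). Over all brain libraries, library 5 included, its means differed 7978-fold in sciatic nerve and 248-fold in optic nerve. Against the 4 brain libraries at 0 alone it was at least 25749-fold higher in sciatic nerve and at least 801-fold higher in optic nerve. Without brain libraries 1 and 2 the fitted changes were 12.17 and 7.17.

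Clec7a, the beta-glucan receptor Dectin-1, was the 1 gene of the 10 that the nerves shared at a similar level. It measured 473, 676, 535 and 563 CPM in sciatic nerve replicates 1 to 4, and 441, 475, 404 and 371 CPM in the optic nerve replicates. Brain libraries 1 to 5 had 23.8, 20.7, 20.8, 31.4 and 33.9 CPM. The nerve libraries overlap by a small margin, since optic nerve replicate 2 is above sciatic nerve replicate 1, and all of them are above every brain library. Clec7a rose by 4.42 (SE 0.19) in sciatic nerve and by 4.02 (SE 0.19) in optic nerve against brain (edgeR adjusted p = 1.07e-10 and 7.03e-10), which is 21.5-fold and 16.2-fold between the means. Sciatic against optic nerve differed by 0.41 (SE 0.18), which was not called (edgeR unadjusted p = 0.0403, adjusted p = 0.129). That p does not show that the nerves are alike. The annotation lists Clec7a as a polymorphic pseudogene, a gene whose coding status differs between strains.

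**Figure D2:**
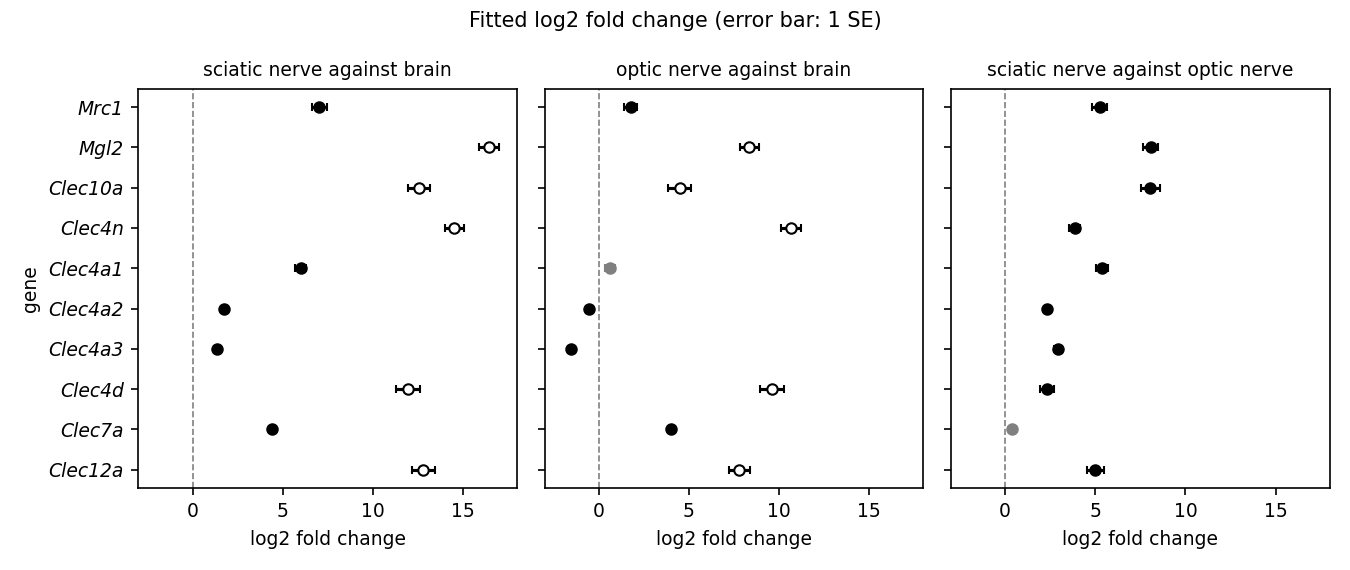
Fitted log2 fold change of each lectin gene in the 3 comparisons, with error bars of 1 SE from edgeR; black points were called and grey points were not, and open points have fewer than 20 counts over all brain libraries, so their size depends on the fit. Clec4a2 and Clec4a3 are left of 0 in optic nerve against brain, and Clec7a is near 0 between the nerves.

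Clec4n and Clec4d are activating receptors that signal through the chain encoded by Fcer1g. Clec4n (Dectin-2) binds fungal mannans, and Clec4d pairs with the neighbouring receptor Clec4e (Mincle). Both had 0 counts in all 5 brain libraries, which allows a level of up to 0.0265 CPM (3 counts over the group). Clec4n ran from 131 to 190 CPM in sciatic nerve and from 6.56 to 16.2 CPM in optic nerve, so it exceeded brain by at least 5802-fold in the former and 399-fold in the latter. Clec4d ran from 15.9 to 40.2 CPM in sciatic nerve and from 4.30 to 6.63 CPM in optic nerve, so it exceeded brain by at least 973-fold in sciatic nerve and 194-fold in optic nerve. The nerves do not overlap for either gene. Between the nerves Clec4n rose by 3.86 (SE 0.30) and Clec4d by 2.33 (SE 0.40) in sciatic nerve (edgeR adjusted p = 3.39e-06 and 0.00155). The edgeR adjusted p of both genes against brain ran from 1.86e-09 to 1.02e-06.

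The 3 Clec4a genes sit within the same cluster, and Clec4a3 and Clec4a2 had the highest levels per length of the 10 genes in brain. Clec4a2 (DCIR) carries an inhibitory motif that recruits the phosphatase encoded by Ptpn6. It measured 319, 353, 292 and 366 CPM in sciatic nerve replicates 1 to 4, 60.9, 68.9, 67.5 and 72.4 CPM in the optic nerve replicates, and 101, 116, 92.9, 90.1 and 88.6 CPM in brain libraries 1 to 5. The lowest brain library is above the highest optic nerve library, and every sciatic nerve library is above both tissues. Clec4a2 rose by 1.77 (SE 0.13) in sciatic nerve against brain and by 2.30 (SE 0.14) against optic nerve, and it fell by 0.53 (SE 0.13) in optic nerve against brain, all on the log2 scale (edgeR adjusted p = 3.32e-08, 1.78e-08 and 0.00538).

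Clec4a3 showed the same order with a larger drop in optic nerve. It measured 414, 425, 341 and 494 CPM in sciatic nerve replicates 1 to 4, 54.0, 61.3, 49.7 and 55.9 CPM in the optic nerve replicates, and 128, 122, 183, 176 and 200.3 CPM in brain libraries 1 to 5. Brain libraries 1 and 2, which stood apart from the rest, are the lowest of the brain, and both still lie above every optic nerve library. Clec4a3 fell by 1.55 (SE 0.18) in optic nerve against brain, which is 2.93-fold between the means, and rose by 1.37 (SE 0.17) in sciatic nerve against brain (edgeR adjusted p = 8.70e-06 and 9.09e-06). Sciatic against optic nerve differed by 2.92 (SE 0.19, edgeR adjusted p = 3.31e-08). Without brain libraries 1 and 2 the changes against brain were -1.74 in optic nerve and 1.16 in sciatic nerve.

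Clec4a1, the neighbour of Clec4a3, was low in both central tissues. Sciatic nerve libraries had 170 to 235 CPM, optic nerve libraries 2.18 to 6.75 CPM and brain libraries 2.09 to 3.59 CPM. The optic nerve and brain libraries overlap, and the sciatic nerve libraries lie far above both. Clec4a1 rose by 6.01 (SE 0.31) in sciatic nerve against brain and by 5.39 (SE 0.33) against optic nerve (edgeR adjusted p = 6.34e-10 and 1.67e-08). Optic nerve against brain differed by 0.61 (SE 0.28), which was not called (edgeR adjusted p = 0.0976). Without optic nerve replicate 3, the lowest, it was 0.85 and called (edgeR adjusted p = 0.0176, with 0.0176 to 0.337 over all alternatives).

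Read along chromosome 6, the 9 protein-coding genes of the Clec4 cluster did not change as a block. In order they are Clec4a1, Clec4a3, Clec4a4, Clec4b1, Clec4a2, Clec4b2, Clec4n, Clec4d and Clec4e. Clec4b1, between Clec4a4 and Clec4a2, stood at 266 ± 39.9 CPM in sciatic nerve. It stood at 1.17 ± 0.523 CPM in the optic nerve and at 0.0752 ± 0.168 CPM in the brain libraries, where all 9 counts come from library 5. Clec4e (Mincle), which binds mycobacterial glycolipids, was at 173 ± 66.5 CPM in the sciatic and 18.4 ± 3.55 CPM in the optic nerve libraries, with 0 counts in brain. Both were called higher in both nerves than in brain and in sciatic than in optic nerve, with edgeR adjusted p from 1.02e-09 to 0.000689. Clec4a4 stayed at or under 2.40 CPM in all libraries and was not called in any comparison (edgeR adjusted p = 0.199 to 0.775), and Clec4b2 had 11 counts in all, in 1 sciatic nerve library. Clec4a2 shares 6.83% of its transcript 50-base stretches with other genes, mainly Clec4a4 and Clec4b1. Clec4a1, Clec4a3 and Clec4d share none, so the fall of Clec4a3 in optic nerve rests on stretches that the annotation gives to no other gene.

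**Figure D3:**
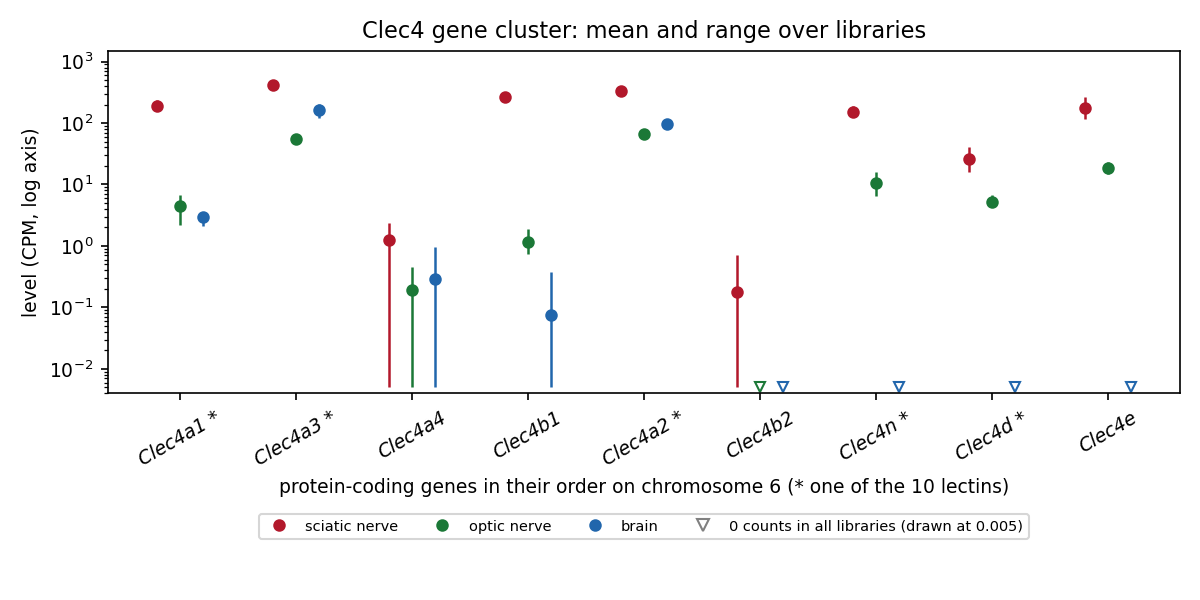
Mean level (points) and range over libraries (lines) in CPM on a log axis for the genes of the Clec4 cluster, in their order on chromosome 6; lines that reach 0.005 include a library with 0 counts. Clec4a3 and Clec4a2 are well above 10 CPM in all 3 tissues, while Clec4n, Clec4d and Clec4e have 0 counts in brain.

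Set per length, the make-up of these transcripts differed between the tissues. The quantity here is the mean CPM per kb of merged exons in the GENCODE annotation, summed over the 10 genes, and the annotation that the authors counted on is not given in the sources used here. In brain Clec4a3 made up 71.9% of the sum and Clec4a2 19.7%. In optic nerve Clec7a made up 61.9% and Clec4a3 16.1%, and in sciatic nerve Mgl2 made up 52.6%, followed by Clec4a3 at 9.41% and Mrc1 at 9.30%. The sum itself was 170 in brain, 259 in optic nerve and 3354 in sciatic nerve. On this scale Mgl2 ranked 37 of 12817 genes with a length in sciatic nerve, Clec7a ranked 291 in optic nerve and Clec4a3 ranked 247 in brain. These shares and ranks are descriptions, with no test between genes.

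**Figure D4:**
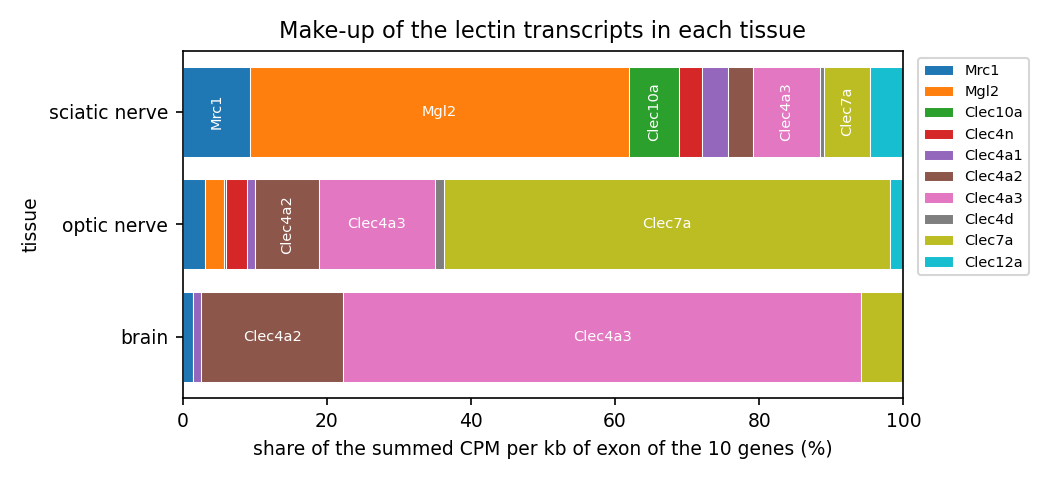
Share (%) of each lectin gene in the summed CPM per kb of exon of all 10 genes, by tissue, from group means. The leading gene is Clec4a3 in brain (71.9%), Clec7a in optic nerve (61.9%) and Mgl2 in sciatic nerve (52.6%).

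Optic nerve libraries differed more among themselves for some of these genes than for others. From the lowest to the highest library, Clec4a1 spanned 3.10-fold, Mrc1 3.03-fold, Mgl2 2.70-fold and Clec4n 2.47-fold, while Clec4a2 spanned 1.19-fold, Clec4a3 1.23-fold and Clec7a 1.28-fold. Replicate 4 was the highest of the 4 libraries for 7 of the 10 genes, and replicates 2 and 3 were the lowest for 4 each. The counts behind the low genes were small, with 39 to 114 counts for Clec4a1, against 464 to 1325 for Mrc1. In sciatic nerve the span was at most 1.45-fold for 9 genes and 2.53-fold for Clec4d. There replicate 3 was the lowest for 8 genes and the highest for Mrc1.

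**Figure D5:**
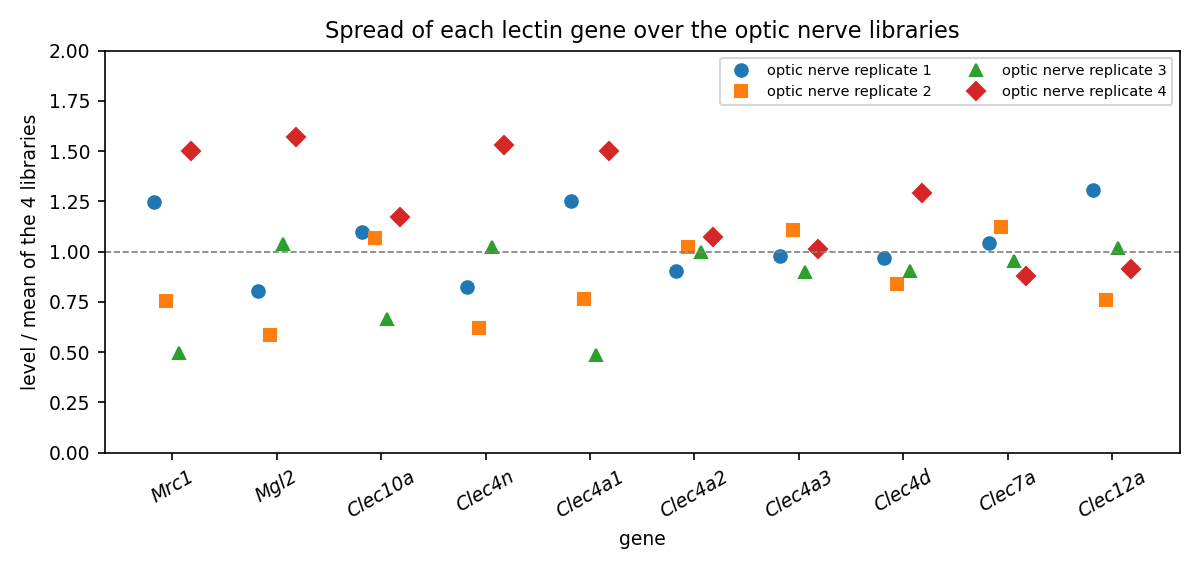
Level of each lectin gene in the 4 optic nerve libraries divided by their mean, with a dashed line at 1. Replicate 4 is the highest for 7 genes, and the points lie close together for Clec4a2, Clec4a3 and Clec7a.

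Other C-type lectins were taken from a list of 56 genes, of which 30 passed the filter. In sciatic nerve against brain 20 of these 30 were higher and 3 lower (median log2 fold change 7.55). In optic nerve against brain 18 were higher and 2 lower (median 3.65), and in sciatic against optic nerve 16 were higher and 4 lower (median 3.00). Over all genes tested, 24.1%, 19.6% and 10.9% were higher and 24.3%, 17.4% and 10.9% lower in the same comparisons. Among those named for the size of their change are 5 Cd209 lectins, homologues of human DC-SIGN. Cd209d, Cd209b, Cd209a and Cd209g measured 530 ± 43.4, 396 ± 63.7, 358 ± 39.8 and 344 ± 112 CPM in sciatic nerve, under 1 CPM on average in optic nerve and 0 counts in brain. Cd209f was at 1147 ± 185 CPM in the sciatic and 1.03 ± 0.704 CPM in the optic nerve libraries, with 4 counts in brain, all in library 5. Colec12, a scavenger receptor with a collagen stalk, was at 209 ± 20.5 CPM in the sciatic and 10.4 ± 5.05 CPM in the optic nerve libraries, and Thbd (thrombomodulin) 68.1 ± 25.2 and 1.80 ± 1.37 CPM, both with 0 counts in brain.

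The closest relative of Mrc1 in the list went the other way. Mrc2 (Endo180), which takes up collagen, had 2 counts over all sciatic nerve libraries, 20.7 ± 2.50 CPM in the optic nerve libraries and 30.3 ± 4.41 CPM in those of brain. It fell in sciatic nerve against both (edgeR adjusted p = 1.12e-09 against brain and 1.00e-08 against optic nerve), and optic nerve against brain was not called (edgeR adjusted p = 0.146). Clec5a, an activating receptor that signals through Dap12, was at 169 ± 7.10 CPM in the sciatic nerve, 273 ± 38.7 CPM in the optic nerve and 197 ± 34.7 CPM in the brain libraries. It was higher in optic nerve than in brain by 0.47 (SE 0.15) and than in sciatic nerve by 0.69 on the log2 scale (edgeR adjusted p = 0.0225 and 0.00517), and sciatic nerve against brain was not called (edgeR adjusted p = 0.248). The remaining genes lower in sciatic nerve than in brain were Klrd1 and Layn, named after their values were seen.

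The signalling genes that these receptors share had small median changes, while single genes changed strongly in either direction. Of 24 genes on the signalling list, all tested, 5 were higher and 10 lower in sciatic nerve against brain (median log2 fold change -0.69). In optic nerve against brain 7 were higher and 5 lower (median 0.34), and in sciatic against optic nerve 2 were higher and 10 lower (median -0.36). Over all genes tested, 24.1%, 19.6% and 10.9% were higher and 24.3%, 17.4% and 10.9% lower in the same comparisons. The counts of higher genes in both sciatic nerve comparisons, and of lower genes in optic nerve against brain, are near these shares. Fcer1g, the chain used by Clec4n and Clec4d, was at 1765 ± 264 CPM in the sciatic nerve, 1748 ± 224 CPM in the optic nerve and 1224 ± 275 CPM in the brain libraries, higher in both nerves than in brain (edgeR adjusted p = 0.0194 and 0.0289). Syk, the kinase downstream of Clec7a, measured 105 ± 28.6, 79.9 ± 26.7 and 110 ± 34.4 CPM in the same order and was not called in any comparison (edgeR adjusted p = 0.206 to 0.858). Tyrobp, which encodes Dap12, was not called either (edgeR adjusted p = 0.0632 to 0.948). Card9, the adaptor that links Syk to NF-kB, was lower in sciatic than in optic nerve, at 6.56 ± 2.54 against 15.5 ± 2.97 CPM (edgeR adjusted p = 0.0248). Ptpn6, the phosphatase of inhibitory tails, was lower in sciatic nerve, at 241 ± 40.5 CPM, than in brain (366 ± 88.9 CPM) and optic nerve (391 ± 22.9 CPM), with edgeR adjusted p = 0.0157 and 0.0184. Among larger changes, named after their values were seen, Vav3 had log2 fold changes of 10.40 in sciatic and 5.39 in optic nerve against brain, where it had 4 counts. Relb had 2.60 and 2.76. In sciatic nerve against brain, Src had -3.72 and Inpp5d -2.11. All of these were called.

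Markers of other cell types that can express these lectins were looked at in the same libraries. Neutrophil genes S100a8, Ly6g and Mmp8 had 0 counts in all 13 libraries, and the summed level of the 10 neutrophil genes was 511 to 623 CPM in the sciatic nerve, 167 to 327 CPM in the optic nerve and 178 to 295 CPM in the brain libraries, nearly all from Mmp9 in sciatic nerve and Csf3r in the central tissues. Of 3 neutrophil genes tested, 2 (Mmp9 and Retnlg) were higher and 1 (Csf3r) lower in sciatic nerve than in brain, against 24.1% and 24.3% of all genes tested. Retnlg measured 1.64 ± 0.277 CPM in sciatic nerve. All 6 monocyte genes tested were higher in sciatic nerve than in brain, against 24.1% of all genes tested. The 9 monocyte genes on the list summed to 5545 to 7743, 462 to 683 and 3.78 to 11.7 CPM in the same order. Most of this sum was F13a1 (4916 ± 824 CPM in sciatic nerve), Nr4a1 and Ccr2. Ly6c2, which defines classical monocytes, stayed at or under 0.277 CPM in sciatic nerve and 3.07 CPM in optic nerve. The 10 dendritic cell genes, which include the lectins Cd209a and Clec9a, summed to 430 to 526, 41.0 to 89.4 and 22.5 to 43.0 CPM. Of 8 tested, 7 were higher and 1, Itgae, lower in sciatic nerve than in brain, against 24.1% and 24.3% of all genes tested. Most of the sciatic nerve sum was Cd209a, at 358 ± 39.8 CPM. Of the others, Irf4 measured 40.7 ± 10.0, 6.84 ± 6.46 and 6.46 ± 2.41 CPM. It was higher in sciatic nerve than in brain and optic nerve (edgeR adjusted p = 0.00275 and 0.0126). Batf3 measured 27.4 ± 3.50, 21.4 ± 2.94 and 15.2 ± 6.73 CPM, and Xcr1 12.5 ± 5.96, 7.60 ± 6.78 and 0.401 ± 0.479 CPM. Zbtb46 measured 19.9 ± 7.33, 12.7 ± 6.34 and 4.67 ± 2.16 CPM, and Flt3 4.64 ± 4.28, 0.931 ± 0.914 and 0.633 ± 0.342 CPM. Clec9a was under 1 CPM in each library.

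Other tissue markers differed as well. The 8 fibroblast genes summed to 197 to 412 CPM in the sciatic nerve, 13.2 to 42.4 CPM in the optic nerve and 2.42 to 7.83 CPM in the brain libraries. Most of the mean sciatic nerve sum was Gsn, at 210 ± 47.0 CPM. All 6 tested were higher in sciatic nerve than in brain, against 24.1% of all genes tested. Dcn, a fibroblast matrix gene, averaged 32.7 CPM over the sciatic nerve libraries and ran from 10.1 to 83.4 CPM, and Col3a1 averaged 10.8 CPM there. The 8 endothelial and lymphatic genes are relevant because lymphatic endothelium also carries Mrc1. They summed to at most 10.3 CPM in sciatic nerve. Flt4 had 0 counts there, Cldn5 had 0 in every library of all tissues, and Kdr, Prox1 and Vwf averaged 2.06, 1.94 and 1.40 CPM in sciatic nerve. The sum of the 8 genes was higher in optic nerve, at 17.9 to 21.0 CPM, and in brain, at 27.1 to 63.7 CPM. Between the nerves, Vwf was higher and Pecam1 lower in sciatic nerve (edgeR adjusted p = 0.0273 and 0.000329). The 6 Schwann cell genes summed to 1033 to 1181 CPM in sciatic nerve, nearly all Pmp22, and the 5 mast cell genes to at most 8.73 CPM. For monocyte, dendritic cell and fibroblast genes, and for Mmp9 and Retnlg, which moved with the lectins, their part in the result was not tested.

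The genes whose levels were most like those of 3 of the lectins over the 13 libraries were found by Pearson correlation of log2 CPM among 4184 genes that reach 50 CPM in a tissue. For Mrc1 they were Hacd4, Tgfbi and Cd209f (r = 0.989, 0.989 and 0.987). For Clec7a they were Il1b, Mapk6 and Nfkbid (r = 0.995, 0.995 and 0.994), and for Clec4a2 they were C1qtnf1, Ms4a6b and Foxp1 (r = 0.982, 0.978 and 0.977). The libraries fall into 3 tissues, so these values mainly describe shared tissue means. A high r does not mean equal levels: Il1b averaged 7095 CPM over the sciatic nerve, 1946 CPM over the optic nerve and 3.35 CPM over the brain libraries, where the nerves differ more than for Clec7a.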

How the data were processed

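Values in the table are raw read counts per gene symbol that the authors deposited, made with STAR and featureCounts 1.5.1 on mm10, per the submitters' processing notes. No label gives the STAR version, the annotation, the strand setting or how multi-mapping reads were treated. Nerve columns were matched to samples by their initials and number. Brain columns, whose prefix is in no label, were taken as the group with 5 replicates, and their library numbers are those of the columns. The number of sample columns not used is 0.

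The low-count filter was filterByExpr with tissue as the group (edgeR 4.0.16, R 4.3.3), which kept 13246 of 48587 symbols. Library sizes were TMM scaled. A single quasi-likelihood model of tissue was fitted to the 13 libraries (10 residual degrees of freedom), and p-values were Benjamini-Hochberg adjusted over all tested genes and called at 0.05. The SE is the log2 fold change divided by the square root of F. A fold against a group at 0 uses a floor of 3 counts over the group, which covers counting error only. The procedure was tested on simulated data. The log2 CPM of the correlations used a prior count of 2. Positions, exon lengths and shared 50-base stretches come from GENCODE M21 on GRCm38, the same build as mm10, and promoters from RefSeq on GRCm38.p6. A single length was found for 12817 of the tested genes (96.8%).

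The members and lists were chosen with earlier results of these data known. All 10 members were named. Of the other lectins, up to 8 with the largest called changes of at least 5 in log2 and 6 relatives or neighbours were named, with 5 signalling genes and the 3 most correlated genes for each of 3 members. The signalling genes Vav3, Relb, Src and Inpp5d were added after their values were seen. Alternatives were DESeq2 1.42.0, upper-quartile scaling, no filter, only the tissues compared, a replicate block, each library left out, and brain libraries 1 and 2 left out together.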

Additional observations from a re-analysis of the deposited data

Results flagged for a closer look

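Of the 28 sets of libraries of 1 tissue with a level above 0 for 1 of the lectin genes, 4 held a library far from the others by Dixon's test at the 95% level, which chance alone flags in about 1 of 20 sets. In 3 of them it was brain library 5, and since the other brain libraries were all at 0, any count in a single library would have been flagged and that chance rate does not apply to these 3. There Clec12a measured 0.543 CPM (13 counts), Clec10a 0.501 CPM (12 counts) and Mgl2 0.167 CPM (4 counts), while brain libraries 1 to 4 had 0 counts for each. In that library Clec10a had more counts than Mgl2, whereas in each sciatic nerve library Mgl2 had more. For 33 tested genes, these 3 among them, brain library 5 had at least 4 counts and the other brain libraries had 0. Of the 33, 23 were higher in sciatic nerve than in brain, against 24.1% of all genes tested. Such genes could pass the filter only through the nerves, so a higher level in a nerve was largely fixed in advance. For brain libraries 1 to 4 such genes numbered 19, 13, 7 and 12, of which 10, 11, 4 and 7 were higher in sciatic nerve. The fourth was Clec4a1 in sciatic nerve replicate 4, at 235 CPM against 170 to 181 CPM in the other replicates.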

How the results depend on the processing

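Over 19 alternatives, 569 of 570 values for the 30 changes of single lectin genes kept their direction and their side of the threshold, and the exception was Clec4a1 in optic nerve against brain without optic nerve replicate 3. The number of lectin genes called was 10, 9 and 9 (sciatic nerve against brain, optic nerve against brain, sciatic against optic nerve), and with each library left out in turn it was 10 in the first, 9 to 10 in the second and 9 in the third. Over all genes 6410, 4893 and 2892 were called, 5859 to 6665, 3972 to 5304 and 2446 to 3457 with each library left out, and 6916, 5636 and 4054 without brain libraries 1 and 2. Without brain library 5, or with the replicate block, in which number 5 has a single library, the fitted log2 changes of Mgl2, Clec10a and Clec12a against brain grew to as much as 19.14, 16.64 and 16.98, since brain libraries 1 to 4 are at 0 for these genes. With the replicate number as a block 10, 9 and 9 lectin genes and 5606, 3926 and 2478 of all genes were called. No pairing by number was detected in these data. Deviations of same-numbered libraries correlated at -0.078 to 0.077, against -0.098 to 0.098 for the other pairs. Of 8 nerve libraries, 2 matched best with their own number in the other nerve. With so few libraries this cannot exclude a pairing. Upper-quartile scaling moved the median change of all genes in sciatic nerve against brain from -0.09 to -0.19 and turned no lectin gene. Depth limits the brain values of Clec4n and Clec4d, which are known only to lie under 0.0265 CPM.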

Other observations

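A few C-type lectins outside the 10 were highest in optic nerve, and they were picked out after their values were seen. Olr1, the receptor for oxidised LDL, was at 50.3 ± 22.3 CPM in the optic nerve libraries, 3.70 ± 3.11 CPM in the sciatic nerve and 1.30 ± 0.834 CPM in the brain libraries, and it was higher than in both (edgeR adjusted p = 0.00198 and 7.43e-05). Klrb1b, an inhibitory receptor of natural killer cells, measured 4.92 ± 2.26 CPM in optic nerve and under 0.5 CPM in every library of the other tissues (edgeR adjusted p = 0.0188 against sciatic nerve and 0.00698 against brain). Cd69, an early activation marker, was at 48.9 ± 18.2 CPM in the optic nerve, 20.9 ± 10.7 CPM in the sciatic nerve and 0.175 ± 0.392 CPM in the brain libraries, with a difference between the nerves that was not called (edgeR adjusted p = 0.267). Olr1 lies next to Clec7a on chromosome 6, and it was not called in sciatic nerve against brain (edgeR adjusted p = 0.0886).

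Cd302, another member of the family, kept the tissue order of Clec4a2 and Clec4a3. It was at 292 ± 29.2 CPM in the sciatic nerve libraries, 193 ± 16.3 CPM in brain and 118 ± 10.2 CPM in optic nerve, and all 3 differences were called (edgeR adjusted p from 2.75e-06 to 0.000884).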
